A study of Danio rerio with 56 samples.

Results

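Zebrafish exposed to hormonal agents were compared at 32 d, as young juveniles, with larvae of the same 3 treatments at 16 d, an interval that spans metamorphosis. All exposed libraries of both ages were taken from the raw count table, 9 at 32 d and 9 at 16 d, which is 18 of the 56 libraries of the series. The series sampled whole fish of the AB strain at 5 ages under 4 treatments for a study of sex development. The 3 treatments used were exemestane (EM, an aromatase inhibitor) at 10 µg/L, 17β-estradiol (E2) at 100 ng/L, and both agents together (EM+E2), given without a break and renewed daily. Every group, the solvent controls included, also carried the solvent DMSO. Each treatment had 3 libraries at each age, and each library was polyadenylated RNA of 25 pooled fish of unstated sex. The labels do not say whether pools came from separate tanks, so p-values measure the spread between these libraries, which may be technical. The food also changed with age, to fairy shrimp alone from 16 d on, so age and diet cannot be told apart.

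Metamorphosis turns the zebrafish larva into a juvenile with the adult body plan, and thyroid hormone is known to time much of it. During it the larval fin fold is replaced by rayed fins, scales and the adult pigment pattern form, the skeleton ossifies, and adult forms of globin and of muscle proteins replace larval ones. The ovary and testis also take shape over these weeks, and oocytes fill the ovary with a stock of maternal RNA. In a whole-body pool, fewer cells of a type and less RNA in each cell cannot be told apart.

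Depth ran from 4039030.0 to 10144213 counted reads over the 18 libraries (median 9112406). Of these, 5 libraries had under 6000000 reads (EM 16 d replicates 1 and 3, EM 32 d replicates 2 and 3, and E2 32 d replicate 1), and they lay apart on the second axis of a plot of distances. In 511 of 21863 genes all 5 of them lay above the other 13, and in 5 genes all lay below. On the first axis E2 16 d replicate 1 and EM 16 d replicate 1 stood apart at 3.33 and 2.68. Those libraries held 527 and 2734 CPM of summed intestine markers, against 17187 to 23648 CPM in the other exposed 16 d libraries, and they were high in neuron, photoreceptor and lens genes. Levels are given in CPM, a gene's read count relative to the scaled size of its library. EM+E2 16 d replicate 3 was ahead of the other 16 d libraries in several juvenile genes given below, and its column in the raw table was identical to that of EM+E2 2 d replicate 2. It was kept under its 16 d label, and its log values correlated at 0.956 with the 16 d column of the second deposited table and at 0.85 with the 2 d column. Results are given with all 18 libraries, and the repeat left out E2 16 d replicate 1 and EM 16 d replicates 1 and 3. Mitochondrially encoded genes took 6.7 to 9.52% of reads at 16 d and 7.73 to 10.9% at 32 d.

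**Figure D1:**
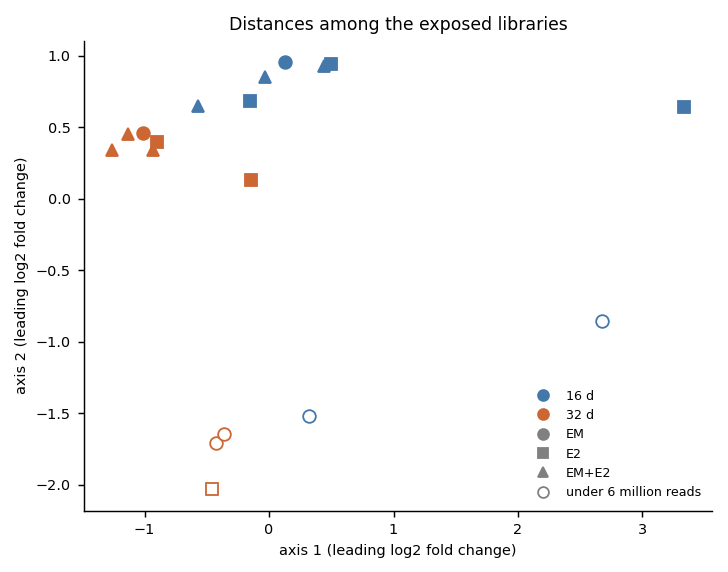
Multidimensional scaling of the 18 exposed libraries, with both axes in units of leading log2 fold change; colour gives the age, shape the treatment and open symbols the 5 libraries under 6000000 reads. All 9 libraries at 32 d lie left of 0 on the first axis, as do 3 of those at 16 d, E2 16 d replicate 1 (3.33) and EM 16 d replicate 1 (2.68) lie far to the right, and the libraries of low depth lie below the rest.

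Between 16 and 32 d, 1340 genes rose and 606 fell of 21863 tested, with treatment as a covariate and 9 libraries an age. The threshold was an adjusted p below 0.05 in edgeR's quasi-likelihood test, and log2 fold changes below are given with their SE. These were 6.13% and 2.77% of the genes, and these percentages are the background for counts below from this fit of all 18 libraries. Counts from any other fit are to be set against the totals of that fit, since those shares differ. A change of at least 1 on the log2 scale was seen in 1082 of the genes that rose and 367 of those that fell. In 264 genes (1.21%) the 9 libraries at 32 d all lay above the 9 at 16 d, and in 49 genes (0.224%) all lay below. Without the 3 libraries of the repeat, 1478 genes rose (6.47%) and 962 fell (4.21%) of 22832 tested. In the 13 libraries over 6000000 reads 582 rose and 130 fell of 22450 tested, smaller shares than with all libraries. DESeq2 called 1952 genes higher and 1555 lower of 21863, larger shares than in edgeR, above all for falls. Fewer genes fell when certain single libraries were left out, namely 310 without EM+E2 16 d replicate 1, 352 without EM+E2 32 d replicate 2, 365 without EM 32 d replicate 1, 368 without EM 16 d replicate 1, 374 without EM+E2 32 d replicate 1 and 383 without EM 32 d replicate 2. The median log2 fold change over all genes was -0.03.

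Adult globins of the red blood cell rose and most of the tested embryonic ones fell. hbaa1, the main adult alpha globin, lay from 0 to 263 CPM at 16 d (median 0.307) and from 786 to 2002 CPM at 32 d (median 1112). The 16 d maximum was in EM+E2 16 d replicate 3, and the next highest 16 d library held 5.17 CPM, so the ages did not overlap. hbaa1 rose (log2 fold change 8.66 ± 1.66 (SE), adjusted p = 0.00346). hbaa2, its neighbour in the adult set, rose too (log2 fold change 4.94 ± 0.83 (SE), adjusted p = 0.00137), from at most 2.48 CPM at 16 d to 2.69 to 18.1 CPM. A pair of genes named HBE1 in the table of symbols, ENSDARG00000089087 and ENSDARG00000097238, rose by log2 8.04 ± 1.12 and 7.90 ± 1.11 (adjusted p = 3.86e-04 and 3.88e-04). These 2 of the 7 genes with that symbol held 140.2 to 473 and 118 to 314 CPM at 32 d. By its human name HBE1 is an embryonic globin, and these 2 genes are in neither globin list, so whether they are adult copies was not settled. The beta globins hbba1, hbba2, hbbe1.1, hbbe1.2, hbbe1.3 and hbbe2 had no matched symbol. Of 6 tested embryonic globins 4 fell and none rose (median log2 -2.49), and in 1 of the 6 the ages were fully apart. The 7 matched genes summed to 25.5 to 590.2 CPM at 16 d (median 233.7). At 32 d they summed to 2.944 to 252.3 CPM (median 60.62), so the sums overlapped.

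hbae3, an embryonic alpha globin, lay from 20.4 to 276 CPM at 16 d (median 196) and from 0.0987 to 19.5 CPM at 32 d (median 0.513). The ages again stood fully apart, by the small gap between E2 16 d replicate 1 and E2 32 d replicate 3, and the gene fell (log2 fold change -6.01 ± 0.88 (SE), adjusted p = 5.29e-04). hbae1.1, hbae1.2 and hbae1.3, the other embryonic alpha copies that passed, fell by 2.69, 2.73 and 2.30 on the log2 scale. The call of hbae1.1 ended in each fit without EM 16 d replicate 3, EM 32 d replicate 1, E2 32 d replicate 1, EM+E2 16 d replicate 1, EM+E2 32 d replicate 1 and EM+E2 32 d replicate 2, where the log2 values were within -3.06 to -2.27. In the 13 deeper libraries the change of hbaa1 (log2 7.13) did not pass, while hbae3 still fell (log2 -6.31). Globin copies are close in sequence, so reads may be split among them.

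**Figure D2:**
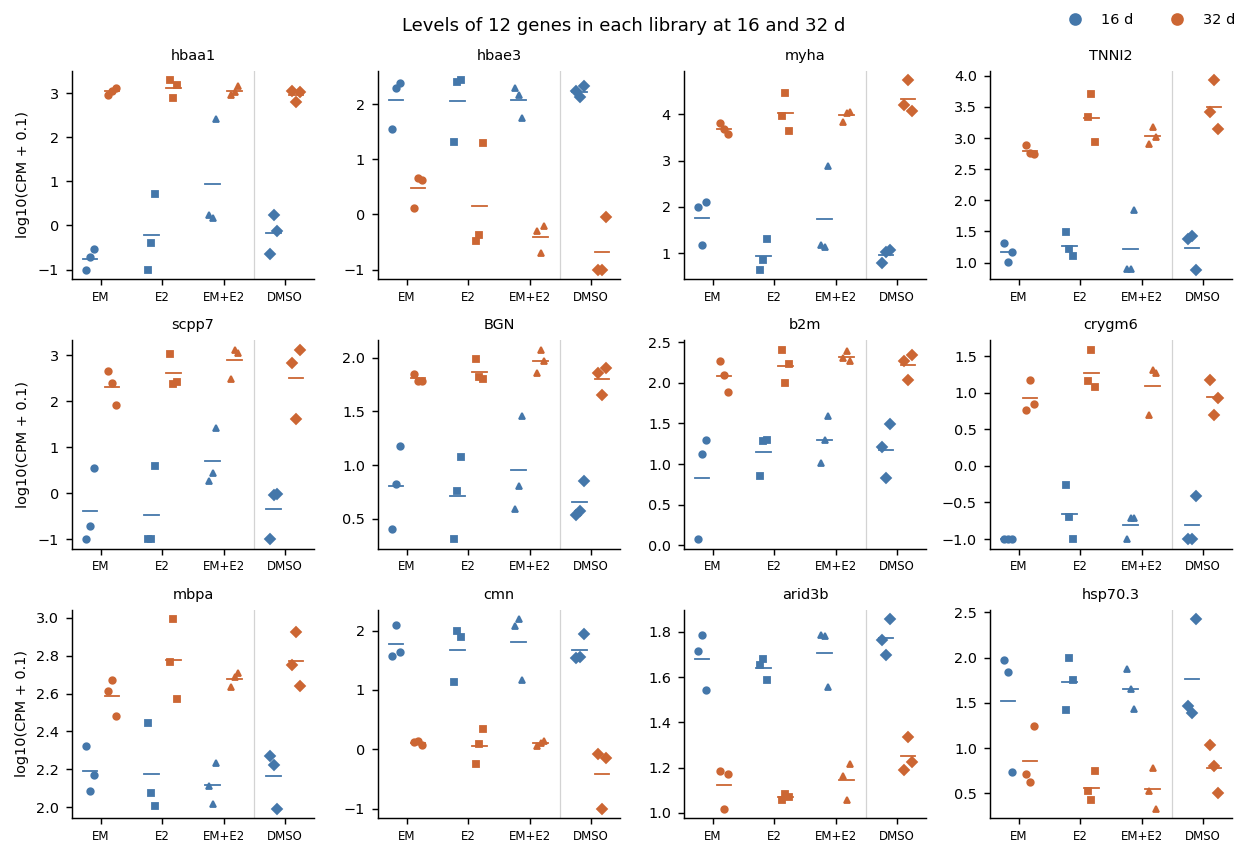
Level of 12 genes in every library as log10 of CPM plus 0.1, by treatment, with 16 d in blue and 32 d in orange; short lines are group means of the plotted values, and DMSO libraries (right of the grey line) are shown for comparison. hbaa1, myha, TNNI2, scpp7, BGN, b2m, crygm6 and mbpa lie higher and hbae3, cmn and arid3b lower at 32 d in all 9 exposed libraries, and hsp70.3 overlaps between ages.

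Of 17 tested myosin heavy chain genes 8 rose and none fell (median log2 0.91), and without the 3 libraries 9 rose and 2 fell; 2 also fell without E2 16 d replicate 1 and without E2 32 d replicate 3. myha, a fast-muscle myosin heavy chain, lay from 4.32 to 764 CPM at 16 d (median 14.8) and from 3795 to 28859.6 CPM at 32 d (median 6770.5). Its levels did not overlap between ages, and the 16 d maximum was again in EM+E2 16 d replicate 3. The gene rose (log2 fold change 6.88 ± 1.09 (SE), adjusted p = 9.07e-04). myhc4, another fast myosin, lay from 4.47 to 98.5 CPM at 16 d (median 35) and from 961 to 20729 CPM at 32 d (median 3652) and rose with the ages fully apart (log2 fold change 6.71 ± 0.80 (SE), adjusted p = 9.31e-05). MYH6 (ENSDARG00000114031), by its human name an atrial myosin, rose from a median of 2.68 to 10.6 CPM, a change of 1.86 ± 0.32 on the log2 scale (adjusted p = 0.00161). The larval and adult fast myosin myhz2 did not pass, at from 812 to 7680.3 CPM at 16 d (median 4488) and from 5086 to 16721 CPM at 32 d (median 7896), with a log2 fold change of 1.11 ± 0.35 and an adjusted p of 0.0554. It passed in the repeat, at log2 0.88.

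Other genes of fast fibres changed in both directions. Of 24 tested fast-muscle genes 8 rose and 3 fell, and 12 rose and 4 fell in the repeat; without E2 32 d replicate 1 only 5 rose. A fast troponin I gene, TNNI2 (ENSDARG00000013752), lay from 7.77 to 69.7 CPM at 16 d (median 14.9) and from 546 to 5160.5 CPM at 32 d (median 859). It is outside the list, shares its symbol with other genes, and was named for the size of its change. No library at 16 d reached the lowest at 32 d, and the gene rose (log2 fold change 5.91 ± 0.56 (SE), adjusted p = 1.03e-05). MYBPC2 and mybpc2b, myosin-binding proteins of fast fibres, rose by log2 2.73 ± 0.31 and 2.50 ± 0.35, both with the ages fully apart. pvalb1, a parvalbumin that buffers calcium, rose (log2 fold change 1.28 ± 0.26 (SE), adjusted p = 0.00526). atp2a1, the calcium pump of the fast-fibre reticulum, went the other way, from 1084 to 4759.6 CPM at 16 d (median 3702) and from 975 to 1607 CPM at 32 d (median 1344), and fell (log2 fold change -1.27 ± 0.23 (SE), adjusted p = 0.00214). Of 22 slow and cardiac muscle genes 5 rose, TNNT1 and MYBPC1 among them with the ages fully apart (log2 1.08 ± 0.18 and 0.99 ± 0.18); the count was 2 to 8 with libraries left out singly. In the 13 deeper libraries 5 of 17 myosins and 4 fast-muscle genes rose.

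Many genes of bone, tooth and connective tissue rose. Of 21 tested genes of bone matrix and bone cells 13 rose and none fell (median log2 1.90). Their summed level lay from 250.4 to 3475 CPM at 16 d (median 1048) and from 1633 to 8212 CPM at 32 d (median 5341), and the 16 d maximum, in EM+E2 16 d replicate 3, lay above the 32 d minimum. bglapl, an osteocalcin-like Gla protein, lay from 1.07 to 30.3 CPM at 16 d (median 3.22) and from 66 to 150.1 CPM at 32 d (median 116), without overlap, and rose (log2 fold change 4.12 ± 0.60 (SE), adjusted p = 4.96e-04). mgp, the matrix Gla protein that restrains calcification, rose from at most 0.381 CPM to between 0.641 and 2.31 CPM (log2 3.43 ± 0.53). IFITM5, an osteoblast membrane protein, and MMP9, a matrix protease, rose by log2 2.31 ± 0.40 and 1.90 ± 0.34. In the repeat 12 of these bone genes rose, and 6 in the 13 deeper libraries.

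Genes of tooth and enamel matrix were among the largest changes. Of 7 tested 4 rose and none fell. scpp7, a secreted calcium-binding phosphoprotein, lay from 0 to 25.8 CPM at 16 d (median 1.75) and from 81.2 to 1321 CPM at 32 d (median 308). It held little or nothing in most 16 d libraries and rose without overlap (log2 fold change 7.61 ± 0.99 (SE), adjusted p = 2.13e-04). ambn, ameloblastin, had a read in few 16 d libraries, where it reached 0.192 CPM at most. At 32 d it lay between 0 and 87.5 CPM with a median of 11.6, so the ages met at 0 while the gene rose (log2 fold change 8.39 ± 0.93 (SE), adjusted p = 5.90e-05). enam, enamelin, and scpp1 rose by log2 2.86 ± 0.72 and 1.94 ± 0.47, with overlap between ages. In the 13 deeper libraries 2 of the 7 rose.

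The connective tissue list had 20 of 30 tested genes higher and none lower (median log2 1.57). BGN (ENSDARG00000017884), the proteoglycan biglycan, lay from 1.94 to 28.5 CPM at 16 d (median 6.23) and from 60.5 to 119 CPM at 32 d (median 70.8) and rose without overlap (log2 fold change 3.15 ± 0.41 (SE), adjusted p = 2.25e-04). col5a3a, a fibril-forming collagen chain, rose by log2 3.14 ± 0.35, also without overlap. The main collagen chains of skin, scale and bone rose as well, COL1A1 by log2 2.50 ± 0.35 and COL1A2 by 2.56 ± 0.35. COL1A1 lay from 283 to 1928 CPM at 16 d (median 549) and from 1464 to 7070.4 CPM at 32 d (median 4325), with EM+E2 16 d replicate 3 inside the 32 d range. In the repeat 20 of 30 rose and 1 fell, and 13 rose in the deeper libraries.

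Of 24 tested cartilage genes 5 fell and 2 rose, and 9 fell in the repeat; the count of 5 became 3 without EM 16 d replicate 2, EM+E2 16 d replicate 2, EM+E2 32 d replicate 1 and EM+E2 32 d replicate 2. MATN3 (ENSDARG00000069265), a matrilin of growing cartilage, lay from 7.24 to 21 CPM at 16 d (median 15.1) and from 0.959 to 5.09 CPM at 32 d (median 3.06) and fell (log2 fold change -2.20 ± 0.30 (SE), adjusted p = 2.73e-04). col9a1b, a chain of cartilage collagen, and MATN4 fell by 2.21 and 1.08 on the log2 scale. All 3 lay lower in every 32 d library than in any 16 d library. ucmaa, a Gla protein of the growth plate, rose (log2 fold change 2.45 ± 0.45 (SE), adjusted p = 0.0026), so the list did not move as one. cmn, calymmin of the notochord sheath, lay from 13.4 to 155 CPM at 16 d (median 77.8) and from 0.463 to 2.11 CPM at 32 d (median 1.18). After hbae3 that was the largest fall among the genes named for the size of a change without overlap (log2 fold change -5.92 ± 0.51 (SE), adjusted p = 3.74e-06).

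Among 12 tested scale and fin ray genes 4 fell and none rose. and1 and and3 encode actinodins, the structural proteins of the fin-fold fibres of the larva, and and3 lay from 7.46 to 109.5 CPM at 16 d (median 85.5) and from 0.691 to 28 CPM at 32 d (median 6.02). The ages overlapped, and and3 fell (log2 fold change -3.03 ± 0.68 (SE), adjusted p = 0.01). and1 fell by 1.39 on the log2 scale, a call that ended in 14 of 18 fits that left 1 library out (log2 values from -1.64 to -1.27). A pair of genes with the symbol SHH, which encode hedgehog signals, ENSDARG00000038867 and ENSDARG00000068567, fell by 1.67 and 1.37 on the log2 scale, the first without overlap. Skin genes were mixed, with 4 of 29 higher and 2 lower, and 5 and 5 in the repeat. krt94 rose without overlap (log2 fold change 1.59 ± 0.30 (SE), adjusted p = 0.00282), krt15 and the hemidesmosome collagen col17a1b rose by log2 1.44 ± 0.26 and 1.90 ± 0.39, and the type I keratin cyt1l fell from a median of 21.9 to 3.06 CPM, a change of -2.73 ± 0.48 on the log2 scale (adjusted p = 0.00196).

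Among pigment cell lists, 5 of 16 tested iridophore genes rose and none fell (median log2 0.75). The count ranged from 1 to 6 with libraries left out singly and was 0 in the 13 deeper libraries, where the list median was 0.76. alkal2b, a ligand of the receptor kinase that drives iridophore growth, rose without overlap (log2 fold change 1.39 ± 0.29 (SE), adjusted p = 0.00655). None of 16 melanophore genes passed in edgeR's test with all libraries (4 at an unadjusted p under 0.05), and 1 fell in DESeq2 and in the repeat. DCT, which makes a melanin precursor, had a log2 value of -0.99 ± 0.37 (adjusted p = 0.1). Of 15 xanthophore genes 1 rose, SCARB1 (log2 1.05 ± 0.30), a carotenoid receptor, whose call ended in 10 of the 18 fits without 1 library.

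Genes of adaptive immunity were among the most uniform rises. Of 20 tested lymphocyte genes 13 rose and none fell (median log2 1.93), and 13 of 18 genes of antigen presentation rose and none fell (median log2 1.90). The lymphocyte genes summed to values from 18.5 to 96 CPM at 16 d (median 49.7) and from 134 to 201 CPM at 32 d (median 165), and no 16 d library reached a 32 d library. cd8b, a coreceptor of cytotoxic T cells, had 2 reads over the 9 libraries at 16 d and 145 at 32 d. The ratio of the pooled levels was 83.8 (95% exact interval 22.8 to 698.1, counting error only). cd8a had 3 and 91 reads, a ratio of 35.0 (11.6 to 173.1). ighm, the heavy chain of immunoglobulin M, lay from 0 to 0.614 CPM at 16 d (median 0.254) and from 0.799 to 9.49 CPM at 32 d (median 4.54) and rose without overlap (log2 fold change 3.84 ± 0.54 (SE), adjusted p = 3.86e-04). cd79a, a chain of the B-cell receptor, rose by log2 4.07 ± 0.68, also without overlap.

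b2m, the invariant chain of class I molecules, lay from 1.1 to 38.7 CPM at 16 d (median 19) and from 75.8 to 255 CPM at 32 d (median 183) and rose (log2 fold change 3.41 ± 0.41 (SE), adjusted p = 9.31e-05). cd74a and cd74b, invariant chains that chaperone class II molecules, rose by log2 3.73 ± 0.57 and 3.38 ± 0.50, and psmb13a, an immunoproteasome subunit, by 2.10 ± 0.38. In these 4 genes, and in 7 of the 18 in all, the ages were fully apart. In the repeat 14 of 22 lymphocyte and 11 of 18 antigen presentation genes rose, and in the 13 deeper libraries 8 and 7. Of 19 myeloid genes 3 rose (1 to 5 with libraries left out singly), SPI1, a regulator of myeloid fate, by log2 1.14 ± 0.23. Of 24 acute-phase, complement and iron genes 8 rose and none fell. The complement genes c4b, MASP1, c7a and c8b rose by log2 1.16 ± 0.24, 0.98 ± 0.20, 1.47 ± 0.33 and 1.08 ± 0.27. The count of 8 was 5 without EM+E2 16 d replicate 1 or replicate 2. None of 24 interferon response genes passed in edgeR's test with all libraries (1 at an unadjusted p under 0.05) or in the repeat, and 1 rose in DESeq2 (list median log2 0.04), and their sums lay from 102 to 1114 CPM at 16 d (median 324) and from 179 to 681 CPM at 32 d (median 423). The hepcidin gene hamp was at most 2.46 CPM at either age and was not tested.

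**Figure D3:**
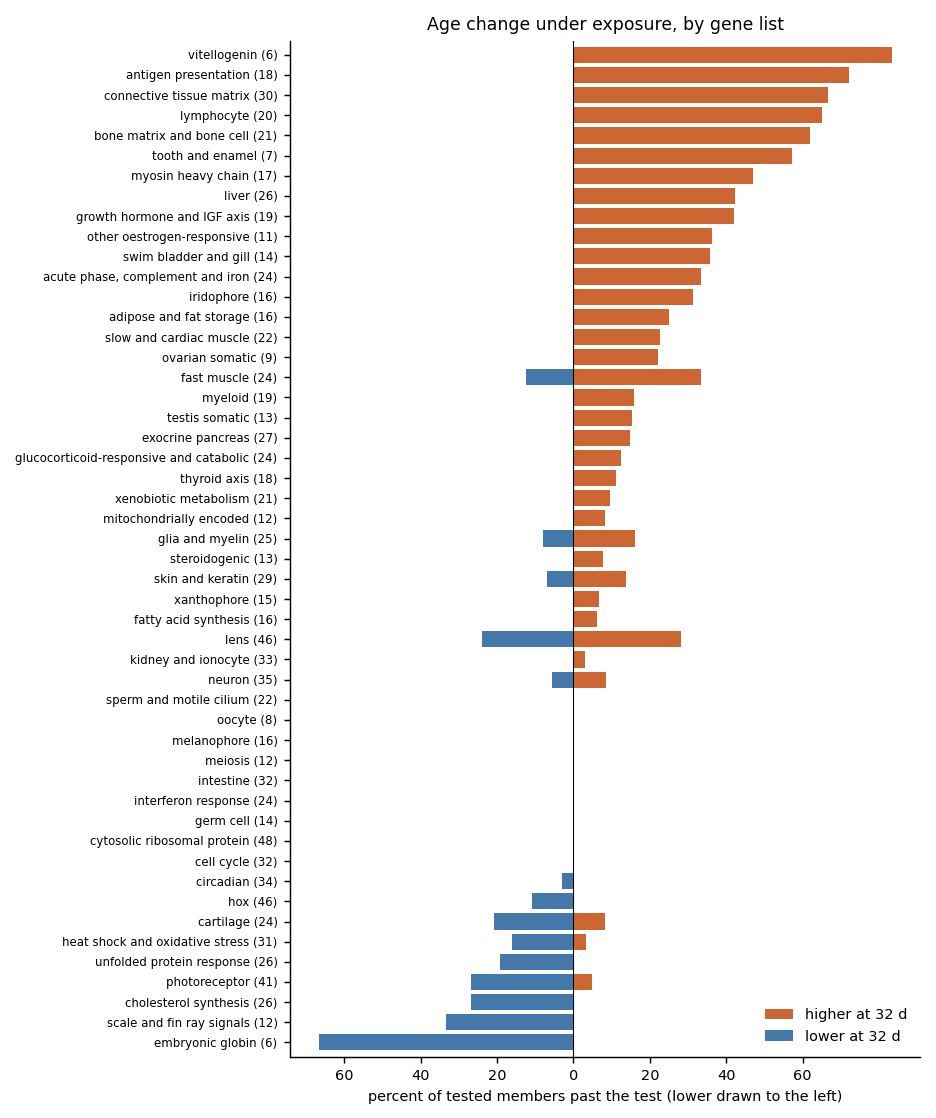
Percent of the tested members of each gene list (number tested in brackets) that were higher (orange, to the right) or lower (blue, to the left) at 32 d in the exposed libraries at an adjusted p under 0.05; lists with at least 6 tested members are shown. Of all 21863 genes 6.13% were higher and 2.77% lower; vitellogenin, antigen presentation, connective tissue, lymphocyte and bone lists reach furthest to the right and embryonic globins furthest to the left.

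Genes of growth and of the digestive organs rose in part. Of 19 tested genes of the growth hormone and IGF axis 8 rose and none fell. IGF1, the growth factor that growth hormone induces, lay from 2.42 to 8.38 CPM at 16 d (median 3.69) and from 8.01 to 18.9 CPM at 32 d (median 14) and rose (log2 fold change 1.69 ± 0.23 (SE), adjusted p = 3.62e-04). igf2a, IGFALS, which stabilises circulating IGF, and the binding protein igfbp6b rose by log2 1.27 ± 0.23, 2.45 ± 0.54 and 1.28 ± 0.29. gh1, growth hormone itself, had a log2 value of 1.04 ± 0.64 (adjusted p = 0.31), and in the 13 deeper libraries it was -0.10. In these deeper libraries 3 of the IGF axis genes rose.

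Of 18 thyroid axis genes 2 rose and none fell, and in the repeat 4 rose and 1 fell. thrsp, a thyroid hormone-responsive gene of fat synthesis, had no read in the 9 libraries at 16 d and 129 reads at 32 d, which is at least 49.7-fold higher against 3 reads over the 16 d libraries. DIO2, the deiodinase that activates thyroid hormone, lay from 0.409 to 6.96 CPM at 16 d (median 3.58) and from 4.84 to 16.3 CPM at 32 d (median 9.91) and rose (log2 fold change 1.54 ± 0.39 (SE), adjusted p = 0.0187). The fat hormone ADIPOQ rose in both genes of that symbol, ENSDARG00000062228 (log2 2.61 ± 0.49) without overlap and ENSDARG00000100086 (log2 2.46 ± 0.58) with overlap. SCD, a desaturase of fatty acid synthesis, rose by log2 2.12 ± 0.39. These were 3 of the 4 genes that rose among 16 adipose and fat storage genes.

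Of 26 liver genes 11 rose and none fell, and 20 rose in the repeat. The sums lay from 607 to 15831 CPM at 16 d (median 9267) and from 13128 to 54936 CPM at 32 d (median 20570.3), with E2 16 d replicate 1 lowest. ahsg1, a fetuin secreted by the liver, lay from 3.58 to 126 CPM at 16 d (median 54.9) and from 103 to 956 CPM at 32 d (median 283) and rose (log2 fold change 2.44 ± 0.57 (SE), adjusted p = 0.0126). hpda, an enzyme of tyrosine breakdown, rose by log2 1.80 ± 0.42. A pair of genes named CYP8B1, an enzyme of bile acid synthesis, ENSDARG00000097556 and ENSDARG00000097559, rose by log2 3.52 ± 0.67 and 3.18 ± 0.70. The liver count fell to 7 without any one of EM 16 d replicate 2, E2 16 d replicate 2, E2 32 d replicate 1, E2 32 d replicate 2, E2 32 d replicate 3 or EM+E2 16 d replicate 2, and was 3 in the 13 deeper libraries. Of 27 exocrine pancreas genes 4 rose, among them amy2al1, an amylase (log2 fold change 2.67 ± 0.37 (SE), adjusted p = 4.02e-04), and 2 rose without E2 32 d replicate 1. None of 32 intestine genes passed in edgeR's test (6 at an unadjusted p under 0.05), 2 rose in DESeq2 and 3 in the repeat, with ANPEP (ENSDARG00000036809), a brush-border peptidase, just outside the threshold (log2 1.10 ± 0.34, adjusted p = 0.0501). c6ast1, an astacin protease chosen by the size of its change, lay from 0 to 0.953 CPM at 16 d (median 0.409) and from 1.26 to 132 CPM at 32 d (median 24.3) and rose without overlap (log2 fold change 6.23 ± 0.66 (SE), adjusted p = 4.15e-05). acot22, a thioesterase, rose likewise (log2 fold change 5.56 ± 0.74 (SE), adjusted p = 2.51e-04).

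Of the organs that handle salt, water and gas, 1 of 33 kidney and ionocyte genes rose and none fell, while in the repeat 1 rose and 3 fell. Without E2 16 d replicate 1, 1 fell, and without E2 16 d replicate 3, 2 rose. The gene that rose with all libraries was AQP3 (ENSDARG00000069518), a water and glycerol channel, which lay from 0 to 1.05 CPM at 16 d (median 0.383) and from 1.28 to 21 CPM at 32 d (median 5.32), without overlap (log2 3.54 ± 0.56). Of 14 swim bladder and gill genes 5 rose and none fell. HAS2, which makes hyaluronan, rose by log2 1.27 ± 0.30, and MYH11 (ENSDARG00000100972), smooth muscle myosin, by 2.04 ± 0.48. The count of 5 fell to as low as 2 with libraries left out singly and was 0 in the deeper libraries.

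Genes of the eye lens changed in both directions. Of 46 tested lens genes, most of them crystallins, 13 rose and 11 fell, and in the repeat 16 rose and 5 fell. crygm6, a gamma M crystallin, lay from 0 to 0.447 CPM at 16 d (median 0) and from 4.77 to 38.5 CPM at 32 d (median 14.1), and rose with a wide gap between ages (log2 fold change 7.45 ± 0.57 (SE), adjusted p = 2.83e-06). crygm3 and crygm4 rose by log2 5.17 ± 0.44 and 5.67 ± 0.64, CRYBB2, a beta crystallin, by 5.64 ± 0.71, and CRYAB (ENSDARG00000042621), a small heat shock protein of the lens, by 4.45 ± 0.53. All 5 lay higher in every 32 d library than in any 16 d library. crygm2d14, a copy of the gamma M2 cluster, lay from 59.1 to 2638 CPM at 16 d (median 91.8) and from 5.77 to 49.1 CPM at 32 d (median 22.5) and fell (log2 fold change -3.28 ± 0.67 (SE), adjusted p = 0.00519), as did GJE1, a gap junction protein (log2 fold change -2.14 ± 0.36 (SE), adjusted p = 0.00139). Both are outside the list and were named for the size of their change, and the 11 falls of the list are not named here. The 13 rises ranged from 12 to 14 with libraries left out singly. The 11 falls ranged from 3 to 18, with moves of over 1.5 times without EM 16 d replicate 1 (3), EM 32 d replicate 1 (5), EM 32 d replicate 2 (7), EM 32 d replicate 3 (5), E2 16 d replicate 3 (18), E2 32 d replicate 1 (4), E2 32 d replicate 2 (5), E2 32 d replicate 3 (4), EM+E2 16 d replicate 1 (5), EM+E2 16 d replicate 2 (7), EM+E2 32 d replicate 1 (6) and EM+E2 32 d replicate 2 (5), and in the deeper libraries none fell while 12 rose. E2 16 d replicate 1 held 58113 CPM of summed lens genes and EM 16 d replicate 1 13368, against 2292 to 7605 CPM in the other 16 d libraries, and their part in the falls was not tested beyond these fits.

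In the retina, 11 of 41 photoreceptor genes fell and 2 rose, and in the repeat 6 fell and 5 rose. E2 16 d replicate 1 and EM 16 d replicate 1 held 10337 and 8094 CPM of summed photoreceptor genes, against 1552 to 5488 CPM in the other exposed 16 d libraries. opn1mw1, a green-cone opsin, lay from 120.3 to 683 CPM at 16 d (median 245) and from 29.5 to 73.9 CPM at 32 d (median 61.7) and fell without overlap (log2 fold change -2.37 ± 0.27 (SE), adjusted p = 6.30e-05). OPN1SW, a short-wavelength cone opsin, fell likewise (log2 fold change -2.23 ± 0.34 (SE), adjusted p = 7.16e-04). Other copies of the green opsin rose. opn1mw3 lay from 0 to 1.33 CPM at 16 d (median 0.339) and from 2.52 to 14.2 CPM at 32 d (median 5.19), without overlap (log2 fold change 3.99 ± 0.64 (SE), adjusted p = 0.00101). opn1mw4 had 3 reads at 16 d and 91 at 32 d, a ratio of 35.0 (95% exact interval 11.6 to 173.1). The 11 falls became 7 without EM 16 d replicate 1 or without EM+E2 16 d replicate 1, and 2 in the deeper libraries.

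Of 25 glia and myelin genes 4 rose and 2 fell (median log2 -0.08). The 2 falls became 1 without EM 16 d replicate 1 or EM+E2 16 d replicate 1, and DESeq2 called 4. mbpa, myelin basic protein, lay from 101 to 278 CPM at 16 d (median 129) and from 302 to 986 CPM at 32 d (median 468) and rose without overlap (log2 fold change 1.70 ± 0.25 (SE), adjusted p = 4.73e-04). plp1b, a further myelin protein, rose by log2 1.52 ± 0.29. GFAP, an intermediate filament of radial glia, lay from 80.6 to 252 CPM at 16 d (median 132) and from 42.5 to 70.2 CPM at 32 d (median 61.9), fully apart, and fell (log2 fold change -1.35 ± 0.23 (SE), adjusted p = 0.00161). Among 35 neuron genes 3 rose and 2 fell (median log2 -0.59), and in the repeat 3 rose and none fell (median log2 -0.12). The falls ranged from 0 to 5 with libraries left out singly, and DESeq2 called 3 higher and 5 lower. The 3 that rose were neurofilament genes, with nefma and nefla at log2 0.77 ± 0.20 and 0.93 ± 0.25, so they went against the list median. The transcription factors NR2F1 (ENSDARG00000017168), NKX6-1 and arid3b fell without overlap, by 2.22, 1.99 and 1.89 on the log2 scale. arid3b lay from 35 to 61.1 CPM at 16 d (median 47.9) and from 10.3 to 16.4 CPM at 32 d (median 12) (adjusted p = 3.74e-06). IGDCC3, a cell-surface protein of the immunoglobulin family, fell by 2.00.

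Some stress and sterol genes fell. Of 31 heat shock and oxidative stress genes 5 fell and 1 rose, and 10 fell in the repeat. The 1 rise was lost in 13 of the 18 fits that left 1 library out and became 2 without E2 16 d replicate 1. hsp70.3, an inducible chaperone, lay from 5.39 to 99.4 CPM at 16 d (median 56.7) and from 2.05 to 17.3 CPM at 32 d (median 4.17). The ages overlapped through EM 16 d replicate 1, and the gene fell (log2 fold change -3.44 ± 0.49 (SE), adjusted p = 4.26e-04). hsp70.1, hsp70l and HSP90AA1 fell by 2.61, 2.45 and 1.49 on the log2 scale, and 4 of the list fell in the deeper libraries. Of 26 genes of cholesterol synthesis 7 fell and none rose, and in the repeat 15 fell and 1 rose. HMGCS1, an early enzyme of the pathway, lay from 105 to 560.0 CPM at 16 d (median 341) and from 52.2 to 159.6 CPM at 32 d (median 81.9) and fell (log2 fold change -1.82 ± 0.34 (SE), adjusted p = 0.00258). IDI1 and EBP fell by 1.13 and 1.15. The count of 7 ranged from 1 to 11 with libraries left out singly, with moves of over 1.5 times without EM 32 d replicate 1 (4), E2 16 d replicate 1 (11), E2 16 d replicate 2 (3), E2 32 d replicate 1 (2), E2 32 d replicate 2 (1), EM+E2 16 d replicate 1 (1), EM+E2 32 d replicate 1 (2), EM+E2 32 d replicate 2 (3) and EM+E2 32 d replicate 3 (4).

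Of 26 genes of the unfolded protein response 5 fell and none rose, and 11 fell in the repeat; the count was 1 to 3 in 14 of the 18 fits that left 1 library out. HSPA5, a resident chaperone of the endoplasmic reticulum, lay from 214 to 1286 CPM at 16 d (median 899) and from 273 to 611 CPM at 32 d (median 316) (log2 fold change -1.10 ± 0.32 (SE), adjusted p = 0.0375). Its call ended in 12 of the 18 fits that left 1 library out, with log2 values within -1.25 to -0.96, and was -1.64 in the repeat. Of 46 hox genes 5 fell, hoxc1a and HOXC4 by 0.94 and 1.01 on the log2 scale, and the count was 3 to 6 with libraries left out singly. It was 4 in the repeat and 1 in the deeper libraries. None rose in edgeR with all libraries, but 3 rose without EM 16 d replicate 3. DESeq2 called 3 higher and 7 lower. FBXO32, a ubiquitin ligase of muscle wasting, rose (log2 fold change 1.68 ± 0.33 (SE), adjusted p = 0.00402), 1 of 3 rises among 24 glucocorticoid-responsive and catabolic genes, a count that became 1 in 8 of the 18 fits without 1 library.

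No gene of cell division passed among 32 tested in edgeR's test with all libraries (5 at an unadjusted p under 0.05), although 3 fell in DESeq2 and 6 in the repeat. mki67, a marker of dividing cells, lay from 95.6 to 256 CPM at 16 d (median 145) and from 103 to 205 CPM at 32 d (median 125) (log2 -0.21 ± 0.21, adjusted p = 0.551). MCM4, of the replication helicase, had a log2 value of -0.68 ± 0.23 and fell in the repeat by 1.01. Of the lists not described elsewhere, 4 of 11 other oestrogen-responsive genes, 2 of 21 of xenobiotic metabolism, 1 of 16 of fatty acid synthesis and 1 of 13 steroidogenic genes rose, the last call ending in 13 of the 18 fits without 1 library, and 1 of 34 circadian genes fell. That circadian count was 0 to 3 with libraries left out singly, moving in 12 of 18 fits, and was 5 in DESeq2 and 4 in the repeat. None of 4 tested pituitary genes passed in edgeR's test (0 at an unadjusted p under 0.05), in DESeq2 or in the repeat. However, 1 pituitary gene fell in 8 of the 18 fits that left 1 library out, and 1 fell without the read filter. None of 48 tested cytosolic ribosomal protein genes passed in edgeR's test (0 at an unadjusted p under 0.05), in DESeq2 or in the repeat, and 1 fell without E2 16 d replicate 3. Of 12 mitochondrially encoded genes 1 rose, MT-ND3 (log2 0.56 ± 0.17), a call that ended in 13 of 18 fits without 1 library.

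Oocyte genes stayed low in the exposed fish at both ages. Of 37 matched oocyte genes only 8 had enough reads to be tested with all libraries (median log2 0.13). None of the 8 passed in edgeR's test (2 at an unadjusted p under 0.05) or in DESeq2. In the repeat 1 of 15 tested rose (median log2 0.46). In the 13 deeper libraries 1 of 13 tested rose (median log2 0.87). The 8 passed the read filter and are not a sample of the 37. The 16 egg-coat genes of the list, the zona pellucida proteins, summed to 1.49 to 5.22 CPM at 16 d (median 3.35) and to 1.09 to 9.59 CPM at 32 d (median 4.23), so the ages overlapped. By treatment the sums at 32 d were 3.12, 1.09 and 2.52 CPM in EM, 5.32, 7.03 and 9.59 CPM in E2 and 5.79, 1.78 and 4.23 CPM in EM+E2. The 3 E2 libraries were among the 4 highest. In DMSO the same sums were 5.58, 5.15 and 2.07 CPM at 16 d and 452, 84.7 and 231 CPM at 32 d, and every exposed library at 32 d lay below every DMSO library of that age. These 16 genes were picked out of the list with values known, so their sums are given without a test.

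zp3b, an egg-coat protein, lay from 0.186 to 2.2 CPM at 16 d (median 0.777) and from 0.54 to 1.93 CPM at 32 d (median 1.42) and did not pass (log2 0.14 ± 0.41, adjusted p = 0.854). In DMSO its values were 1.98, 1.17 and 0.0942 CPM at 16 d and 63.1, 19 and 38.6 CPM at 32 d, a log2 fold change of 5.23 ± 0.85 with an adjusted p of 0.00277. The difference between the exposed and the DMSO change was -5.09 on the log2 scale, with an adjusted p of 0.0717, and no gene had a smaller one. buc, which organises the germ plasm in the egg, and ZAR1, an egg RNA-binding protein, had log2 values of 1.76 ± 0.70 and 1.55 ± 0.63 (adjusted p = 0.119 and 0.131) under exposure and of 6.29 and 7.71 in DMSO, where both rose.

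The germ cell list had 0 of 14 tested genes called in edgeR's test (2 at an unadjusted p under 0.05), in DESeq2 and in the repeat. DDX4, a germ-line RNA helicase, lay from 0.746 to 7.1 CPM at 16 d (median 2.2) and from 1.28 to 11.2 CPM at 32 d (median 3.96) (log2 0.77 ± 0.44, adjusted p = 0.273), and PIWIL1 and PIWIL2, which guard germ cells against transposons, had log2 values of 1.13 ± 0.46 and 1.13 ± 0.48. None of 12 meiosis genes passed with all libraries in edgeR (6 at an unadjusted p under 0.05) or in DESeq2, and 2 rose in the repeat. Among 22 genes of sperm and motile cilia none passed in edgeR (1 at an unadjusted p under 0.05), and 1 fell in DESeq2.

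Of 13 genes in the list of testis somatic cells 2 rose, amh and gsdf, both growth factors of the gonad in fish. gsdf lay from 0 to 1.98 CPM at 16 d (median 0.0958) and from 0.799 to 12.8 CPM at 32 d (median 2.31) and rose (log2 fold change 3.42 ± 0.65 (SE), adjusted p = 0.00326). amh lay from 0.0971 to 0.929 CPM at 16 d (median 0.447) and from 0.16 to 10.6 CPM at 32 d (median 1.78) and rose (log2 fold change 2.08 ± 0.55 (SE), adjusted p = 0.025), a call that ended in the repeat and in fits without EM 16 d replicate 1, EM 16 d replicate 2, EM 32 d replicate 1, EM+E2 16 d replicate 1, EM+E2 16 d replicate 2 and EM+E2 32 d replicate 1, where the log2 values were within 1.85 to 2.32. By treatment amh was 0.22, 0.645 and 0.929 CPM at 16 d and 10.6, 7.99 and 5.04 CPM at 32 d in EM, and 0.447, 0.511 and 0.339 and then 0.231, 0.16 and 0.421 CPM in E2. In EM+E2 it went from 0.0971, 0.192 and 0.667 to 2.03, 1.78 and 1.15 CPM. The EM and EM+E2 libraries at 32 d all lay above their 16 d libraries, and the E2 libraries did not. The difference between treatments in the change of amh had an unadjusted p of 0.00191 in edgeR's test, and an adjusted p of 1. Of 9 ovarian somatic genes 2 rose, FST (ENSDARG00000057992) and RSPO1 (log2 1.05 ± 0.27 and 1.26 ± 0.34), neither of them in the repeat.

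**Figure D4:**
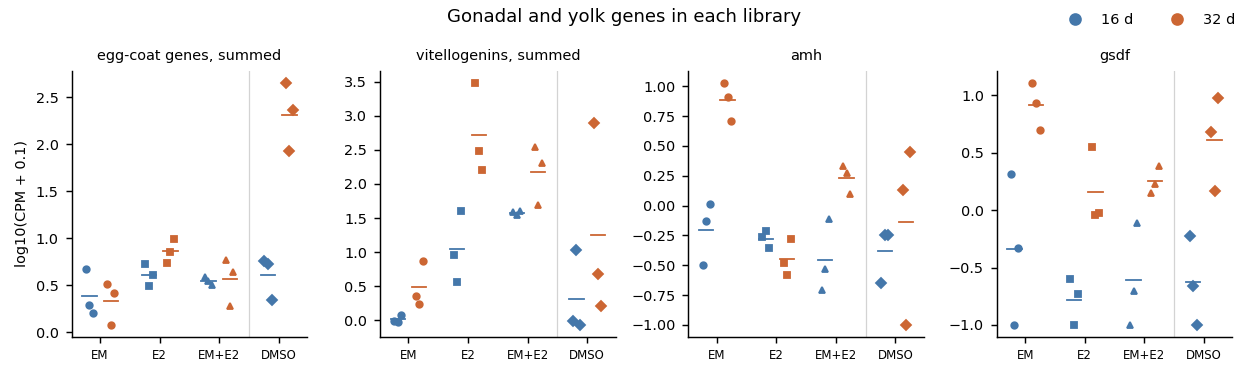
Summed egg-coat genes, summed vitellogenins, amh and gsdf in every library as log10 of CPM plus 0.1, by treatment, with 16 d in blue, 32 d in orange and group means as short lines. Egg-coat genes reach 84.7 to 452.1 CPM in DMSO at 32 d and at most 9.59 CPM in the exposed libraries, vitellogenins at 32 d are lowest in EM among the exposed groups, and amh at 32 d is highest in EM.

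Of 6 tested vitellogenin genes, which encode yolk precursors, 5 rose and none fell (median log2 3.92). These proteins are made in the liver under oestrogen, 2 of the 3 treatments held E2, and the copies are close enough for reads to be split. The part of the added E2 in the rise with age was not tested. vtg1 lay from 0 to 8.81 CPM at 16 d (median 1.19) and from 0 to 1829 CPM at 32 d (median 25.3) and rose (log2 fold change 4.97 ± 1.34 (SE), adjusted p = 0.0276). Its call ended without E2 16 d replicate 3, EM+E2 16 d replicate 1, EM+E2 16 d replicate 2 and EM+E2 32 d replicate 1, with log2 values within 3.63 to 5.42. The summed vitellogenins were 0.879, 0.83 and 1.11 CPM at 16 d and 2.17, 1.63 and 7.2 CPM at 32 d in EM. In E2 they were 8.95, 3.58 and 40.0 and then 3061, 301 and 160.1 CPM, and in EM+E2 39, 34.4 and 40.4 and then 345, 49.2 and 207 CPM. Every 32 d library lay above every 16 d library of its own treatment. The DMSO sums were 0.868, 10.8 and 0.754 CPM at 16 d and 784, 4.61 and 1.51 CPM at 32 d. Only DMSO 32 d replicate 1 lay above every DMSO 16 d library. In DMSO 2 of 7 tested vitellogenins rose, and over the 6 genes tested in both fits the median log2 was 5.91 in DMSO. vtg5 and vtg4 rose by log2 5.13 ± 1.08 and 4.72 ± 0.93, and ESR2 (ENSDARG00000016454), an oestrogen receptor, by 1.77 ± 0.32. The difference between treatments in the change of vtg1 had an unadjusted p of 0.0564 and did not pass.

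Taken by treatment, with 3 libraries against 3, 10 genes changed in EM (0.0457%), 49 in E2 (0.224%) and 8 in EM+E2 (0.0366%). Across 21863 genes the changes of EM and E2 correlated at r = 0.53, those of EM and EM+E2 at 0.56 and those of E2 and EM+E2 at 0.46, as a description over genes that share libraries within a treatment. Of the 6 EM libraries 4, and of the 6 E2 libraries 2, were among those named above as standing apart or low in depth. hbaa1 was 0, 0.0922 and 0.186 CPM at 16 d in EM, 0, 0.307 and 5.17 CPM in E2 and 1.65, 1.34 and 263 CPM in EM+E2, and at 32 d every library of each treatment held at least 786 CPM. myha at 32 d was 6342, 4849.5 and 3795 CPM in EM, 9097, 28859.6 and 4469 CPM in E2 and 6770.5, 10912 and 11466 CPM in EM+E2. The test of a difference between treatments in the age change called 0 of 21863 genes (0%) in edgeR, with 304 at an unadjusted p under 0.05, and 0 in DESeq2. The p of that test does not show that the treatments changed alike.

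The DMSO libraries, which share no library with the exposed ones, gave the most similar comparison. In them 267 genes rose (1.2%) and 46 fell (0.207%) of 22181 tested, with 3 libraries an age. Of the 1340 genes that rose under exposure 1329 had a positive change in DMSO (99.2%), and of the 606 that fell 585 had a negative one (96.5%). The share of all genes with either sign was not counted, but their median log2 change in DMSO was 0.03. Across all 22181 genes the mean exposed change and the DMSO change correlated at r = 0.68. Called in both were 181 rising genes, which is 13.5% of the exposed list and 84.2% of the 215 genes called higher in DMSO and tested in both, and 42 falling genes, 6.93% of the exposed list and 91.3% of the 46 in DMSO. hbaa1, hbae3, myha, cmn and arid3b passed in both. DMSO 32 d replicate 2 stood apart, with 20.4% of reads from mitochondrially encoded genes and 31.0% from its 10 most abundant genes. The DMSO 16 d libraries differed too. Replicates 1 and 2 held 1257 and 1127 CPM of summed exocrine pancreas genes, against 12856.5 CPM in replicate 3. Their photoreceptor sums were 9153 and 9016 CPM against 2399 CPM, while their lens sums, 2701 and 5374 CPM, lay on either side of its 3446 CPM. What this did to the DMSO change was not tested.

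**Figure D5:**
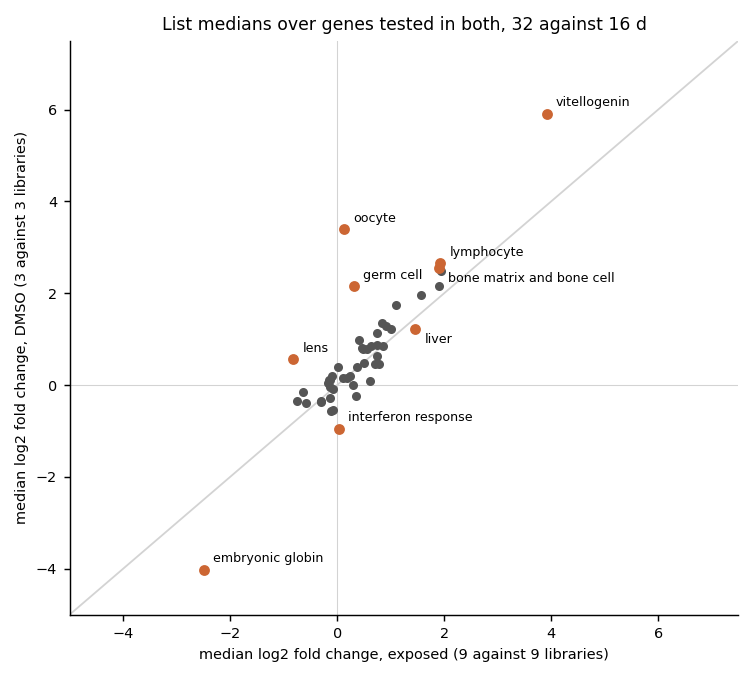
Median log2 fold change of each gene list at 32 against 16 d in the exposed libraries (horizontal) and in the DMSO libraries (vertical), over the same genes of each list, for lists with at least 6 genes tested in both; the grey diagonal marks equal values and 9 lists are labelled in orange. Most lists lie near the diagonal, and the 8 oocyte genes tested in both have medians of 3.40 in DMSO and 0.13 under exposure.

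No gene passed the test of the difference between the exposed and the DMSO change in edgeR, 0 of 22181 (0%), with 393 at an unadjusted p under 0.05. DESeq2 called 52 genes, 47 of them lower under exposure. Without DMSO 32 d replicate 2, edgeR called 32 genes, all lower under exposure, with zp3b among them. Of the 22181 genes, 21853 were also tested in the exposed libraries alone, and the others passed the read filter only with DMSO included. A gene let in by high DMSO levels at 32 d can hardly be called other than lower under exposure. How many such genes were among these calls was not counted, so their directions are not read as a result. In the fit of 24 libraries 20 oocyte genes were tested, 12 of which passed the read filter only with the DMSO libraries included, so no count over these 20 is given. Several lists with many changes in the exposed fish had medians on the same side in DMSO, over the same genes. These were 2.55 for bone, 1.96 for connective tissue, 2.65 for lymphocytes, 2.16 for antigen presentation and -4.02 for embryonic globins. Under exposure they were 1.90, 1.57, 1.93, 1.90 and -2.49. The lens list, with 13 rises and 11 falls under exposure, had medians on opposite sides, 0.57 in DMSO and -0.82 under exposure. The exposed lens median was only -0.07 in the repeat, and by treatment it was -0.60 in EM, -1.65 in E2 and 0.07 in EM+E2. The exposed median thus lay nearer to the DMSO median in the repeat, though still on the opposite side. EM+E2, which lost no library in the repeat, also lay below DMSO. What made the gap was not tested. In DMSO 10 of the lens genes rose and none fell. The germ cell list had medians of 2.16 in DMSO and 0.32 under exposure.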

How the data were processed

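Per the labels' protocols, polyadenylated RNA of whole-fish pools was made into strand-marked libraries. GRCz11 is the genome build in the submitters' processing notes, which list HISAT2 2.0.5 and HTSeq 0.9.1 among the tools, with no role given; the annotation release and counting options are not given in the sources used here, so it is not known whether reads of overlapping or antisense genes were told apart. The main values were raw counts of reads for 32520 genes, as deposited by the authors. They also deposited a normalized signal (counts divided by 1 factor a library), whose values were whole multiples of 1 read within 0.01 in 100% of cases; the recovered reads served as an alternative. The tables share 27913 genes and do not hold the same counts. Raw counts labelled EM+E2 16 d replicate 3 were the same, gene for gene, as those labelled EM+E2 2 d replicate 2, and were used here under the 16 d label.

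Depth was 4039030.0 to 10144213 counted reads a library in the 18 exposed libraries. Intervals and floors cover counting error only, and a fold against a group without reads is a bound against 3 reads over the group. Counts were tested with edgeR 4.0.16 (R 4.3.3), with filterByExpr at a minimum count of 10 and total of 15, TMM scaling, the quasi-likelihood test and Benjamini-Hochberg adjustment over all genes of a fit; the SE is the size of the log2 fold change over the square root of the F statistic. The age change had age and treatment as terms. Changes within treatments and their differences came from 6 group means, and the comparison with DMSO from 8 group means over 24 libraries. CPM use the scaling factors of those 24 libraries. On data simulated for the age change, 23 of 200 genes changed 2-fold, 179 of 198 changed 4-fold and 199 of 200 changed 8-fold were called, with 1 to 5 unchanged genes. Unlike the data, the simulated libraries held no shift by depth class, no libraries standing apart and no treatment effect. These figures are therefore not the performance on the data.

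The members and the 52 gene lists were chosen with earlier results of these data known. Symbols came from the supplied table of names, and 1146 of 1246 listed symbols matched, 232 of them without a copy's letter or number. Named genes are a panel of 10, up to 12 a direction with the largest change among those passing with a log2 change of 1, 5 CPM and ages fully apart, and up to 4 a list with the smallest adjusted p (2 where none passed); fewer are named where space required, and some are not reported here. Alternatives were DESeq2 1.42.0, other scaling, filters and terms, the recovered reads and leaving out libraries. Fits by depth class, and fits also without EM+E2 16 d replicate 3 or DMSO 32 d replicate 2 beside the 3 libraries of the repeat, were chosen after seeing the data.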

Additional observations from a re-analysis of the deposited data

How the results depend on the processing

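The 1340 rises under exposure stayed within 1082 and 1952, and the 606 falls within 475 and 866, under other scaling, filters, terms and tools, apart from the following. DESeq2 called 3507 genes, 1555 of them lower. Without the 3 libraries of the repeat 962 fell, and 975 without these and EM+E2 16 d replicate 3. A minimum log2 change of 1 left 367 falls. The 13 libraries over 6000000 reads gave 712 genes, 582 higher and 130 lower, and the 5 below that depth gave 5, with 4 higher and 1 lower; fewer libraries entered both fits. Leaving out libraries singly gave 1237 to 2355 genes, 927 to 1569 higher and 310 to 870 lower, and the total moved by over 1.5 times only without EM+E2 16 d replicate 1 (1237). For the difference to DMSO, where no gene passed, DESeq2 called 52 genes, the fit with a replicate block 4, and the fit without DMSO 32 d replicate 2 and the 3 libraries 24, and leaving out libraries singly gave 0 to 32, the 32 without DMSO 32 d replicate 2. The difference between treatments stayed at 0 in each fit run. The cause of these moves was not tested.

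The labels do not say whether replicate numbers pair the samples. In deviations from group means, same-numbered libraries of the 2 ages correlated from -0.446 to 0.235 and differently numbered ones from -0.380 to 0.540. With so few libraries a group these ranges can neither show nor exclude pairing. With the replicate block 1503 genes rose and 522 fell, and 3 of the 151 named genes that passed no longer did. Of these 151, 118 kept their call in each fit that left out 1 library, 10 lost it without the 3 libraries and 53 in the 13 deeper libraries. Signs turned in libraries under 6000000 reads for zp3b (-0.22), mki67 (0.44), MCM4 (0.09) and HSPA5 (0.12), and in libraries over that depth for gh1 (-0.10) and CGA (-0.37), a pituitary hormone subunit. Of 37 matched oocyte genes 8 had enough reads to be tested in the exposed libraries.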
